A study of Mus musculus with 2 samples.

Results

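The Clec4 cluster lectins of mouse are C-type lectin receptors of myeloid cells, encoded side by side on chromosome 6. The 8 members described here, of 31053 features in each deposited matrix, were taken by symbol: Clec4a1, Clec4a2, Clec4a3 and Clec4a4 of the DCIR (dendritic cell immunoreceptor) branch, and Clec4b1, Clec4d, Clec4e and Clec4n of the dectin-2 branch. All 8 symbols were matched. The study profiled lung of C57BL/6 mice aged 8 to 10 weeks by droplet single-cell RNA sequencing of conventional dendritic cells (cDCs). Cells were released with dispase, the treatment that both groups share, and sorted by flow cytometry. One library held XCR1+ cells, named cDC1 in the labels, and the other CD172a+ cells, named cDC2. Neither the sex nor the number of mice behind a library, nor whether mice were pooled, is given in the sources used here. Each sort is represented by 1 library, so differences could not be set against replicates and nothing was tested. Every interval below is a 95% counting interval and says nothing about the spread between mice, and the sort, the library and the mice behind it cannot be told apart.

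C-type lectins of this cluster sense glycans of microbes and of dying cells, and they signal in opposite ways. Clec4a2 (DCIR1) and Clec4a4 (DCIR2) carry an immunoreceptor tyrosine-based inhibitory motif (ITIM) in the cytoplasmic tail, which recruits phosphatases such as SHP-1, the product of Ptpn6. Clec4a1 (DCIR4) and Clec4a3 (DCIR3) are close relatives without that motif. Clec4b1 (DCAR), Clec4n (dectin-2, a receptor for fungal mannans), Clec4d (MCL) and Clec4e (Mincle, a receptor for the mycobacterial cord factor) act through the Fc receptor gamma chain, the product of Fcer1g, and the kinase Syk. They are called activating members here, and Clec4a1 and Clec4a3 are kept apart as members of neither kind.

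The sequences that separate the kinds are the first 24 codons of the 4 DCIR genes, from the longest GENCODE vM21 coding sequence on GRCm38, all on the plus strand and each within 1 exon. Capitals mark the 6 codons that match the ITIM consensus, found by translating each sequence.
Clec4a2, chr6:123123588-123123659: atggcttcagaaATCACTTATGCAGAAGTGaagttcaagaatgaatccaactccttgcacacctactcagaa
Clec4a4, chr6:122990367-122990438: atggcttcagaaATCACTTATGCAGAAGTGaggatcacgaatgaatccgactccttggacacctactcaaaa
Clec4a1, chr6:122921974-122922045: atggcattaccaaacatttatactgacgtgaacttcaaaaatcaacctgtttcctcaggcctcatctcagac
Clec4a3, chr6:122952868-122952939: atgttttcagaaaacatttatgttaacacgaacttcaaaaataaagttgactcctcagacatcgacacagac
Both ITIM genes held the same 18 bases from codon 5. Over those 18 bases, Clec4a1 differed from Clec4a2 at 5 bases and Clec4a3 at 8, and neither had a match in its first 45 codons. Over all 72 bases shown, Clec4a4 differed from Clec4a2 at 6. A match to the letters also occurred from codon 39 in Clec4n, where it is a description of the sequence only. Close relatives can share reads, so counts within the DCIR branch may depend on how the authors' counter treated such reads. The sequences above are coding starts, and the other ends of the transcripts, which the kit counts, were not compared. Whether reads were shared was thus not tested.

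On GRCm38 the genes lie in the order Clec4a1 (ENSMUSG00000049037, chr6:122921848-122934619), Clec4a3 (ENSMUSG00000043832, chr6:122952515-122969875), Clec4a4 (ENSMUSG00000059639, chr6:122990367-123024105), Clec4b1 (ENSMUSG00000030147, chr6:123049962-123071555) and Clec4a2 (ENSMUSG00000030148, chr6:123106428-123143999). They are followed by Clec4n (ENSMUSG00000023349, chr6:123229843-123247021), Clec4d (ENSMUSG00000030144, chr6:123262111-123275265) and Clec4e (ENSMUSG00000030142, chr6:123281789-123289870). Clec4e alone is on the minus strand, so Clec4d and Clec4e converge. The kinds are interleaved along the locus.

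The cells that passed the filters numbered 2574 in the cDC1 library, with 35071861 UMIs (unique molecular identifiers, 1 per captured transcript) in all, and 2835 in the cDC2 library, with 38613693. The median cell carried 12866 and 12655 UMIs. States were assigned from marker genes that include no member, and a cell named X-like met the marker minimum for X. Of the cDC1 library, 79.9% of cells were resting cDC1-like, with Xcr1 in 88.5% of them and Clec9a in 75.2%. Of the cDC2 library, 66.7% were resting cDC2-like, with Sirpa, the gene of CD172a, in 71.5% and Mgl2 in 93.6%. These genes are markers of the gates themselves, so their shares do not test the names. The CD172a+ sort also held 105 macrophage or monocyte-like, 32 neutrophil-like and 38 B cell-gated cells, and the XCR1+ sort held 6, 3 and 5. Each library contained a few cells of the other kind, 34 cDC2-like cells among the XCR1+ cells and 38 cDC1-like cells among the CD172a+ cells. A gate for nonclassical monocytes at 3 of 8 genes went against its name: the 135 cells it took from the cDC1 library had Xcr1 in 92.6% and cycling genes at their head, and of the 205 it took from the cDC2 library 81.5% had Mgl2. These are called cells with at least 3 of the 8 genes, and only the 36 cells of the cDC2 library with at least 5 are called nonclassical monocyte-like. Doublets were not removed, and 6 cell barcodes occurred in both libraries.

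All members with enough counts were higher in the CD172a+ cells, and Clec4b1 was the most abundant member in both libraries. Values are CPM, UMIs of a gene per 1000000 UMIs summed over the cells named. The kit counts 3' ends, so a level does not scale with transcript length and genes can be set beside each other, with the caveat that capture can differ between genes. Clec4b1 (DCAR) had 23.2 CPM (21.6 to 24.9, 814 UMIs) in XCR1+ cells and 186.0 CPM (181.7 to 190.4, 7183 UMIs) in CD172a+ cells, a ratio of 8.02 (7.45 to 8.63). Clec4a2, the inhibitory DCIR1, stood at 8.70 CPM (305 UMIs) and 60.6 CPM (2338 UMIs), a ratio of 6.96 (6.18 to 7.87). These were the members with most UMIs in the XCR1+ cells and had the smaller ratios of the abundant genes.

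Clec4n (dectin-2) had 3.82 CPM (134 UMIs) in XCR1+ cells and 43.7 CPM (1689 UMIs) in CD172a+ cells, 11.5-fold more (9.60 to 13.8). In the XCR1+ sort 44 of its 134 UMIs came from 1 cell, and over gated dendritic cells the ratio was 19.8 (15.6 to 25.4). The members of neither kind were further apart. Clec4a1 had 2.62 CPM (92 UMIs) and 50.8 CPM (1960 UMIs), 19.4-fold more (15.7 to 24.1). Clec4a3 had 0.798 CPM (28 UMIs) and 29.96 CPM (1157 UMIs), 37.5-fold more (25.8 to 56.7). Clec4a3 was thus near the lower end of the cDC1 library and in the middle of the cDC2 library.

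Mincle and its partner MCL were rare in both sorts. Clec4e stood at 0.513 CPM (18 UMIs) and 13.5 CPM (523 UMIs), a ratio of 26.4 (16.5 to 44.9), and Clec4d at 1.28 CPM (45 UMIs) and 8.62 CPM (333 UMIs), a ratio of 6.72 (4.91 to 9.39). Clec4a4 (DCIR2) had 0 UMIs in the cDC1 library, below the floor of 3 counts or 0.0855 CPM, and 13 UMIs (0.337 CPM) in the cDC2 library. That is 3.94-fold the floor, on very few counts, and the floor is not a bound on the true level. Without the neutrophil-like cells Clec4e stood at 0.314 and 6.66 CPM and Clec4d at 0.713 and 4.06 CPM.

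A gene counted as measured at 10 CPM or more on at least 1 side and as called at 2-fold or more, a rule of size. A gene that reaches 10 CPM on 1 side only can be called only toward that side. All 6 measured members (all but Clec4a4 and Clec4d) were called higher in the cDC2 library, where 7.79% of 6610 measured genes were called, and none was among the 5.51% called higher in the cDC1 library. Of these members only Clec4b1 (23.2 CPM) reached 10 CPM in the cDC1 library. The direction of the other calls was thus set by this filter. The members' median log2 ratio, under the same limit, was 3.90, against 0.05 over all measured genes. Leaving out the neutrophil-like cells left 5 measured members, all called higher (7.73% of genes, with 5.52% lower), and keeping only cells of the dendritic gates did the same (5 members, 7.47% of genes, with 5.98% lower). The filter limits both counts in the same way. In the cDC2 library neighbours in the order Clec4b1, Clec4a2, Clec4a1, Clec4n, Clec4a3, Clec4e, Clec4d and Clec4a4 did not overlap in their intervals. In the cDC1 library Clec4n (3.201 to 4.53 CPM) overlapped Clec4a1 (2.12 to 3.22 CPM), and Clec4d, Clec4a3 and Clec4e (1.28, 0.798 and 0.513 CPM) overlapped their neighbours in the order, so their order there was not resolved.

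**Figure D1:**
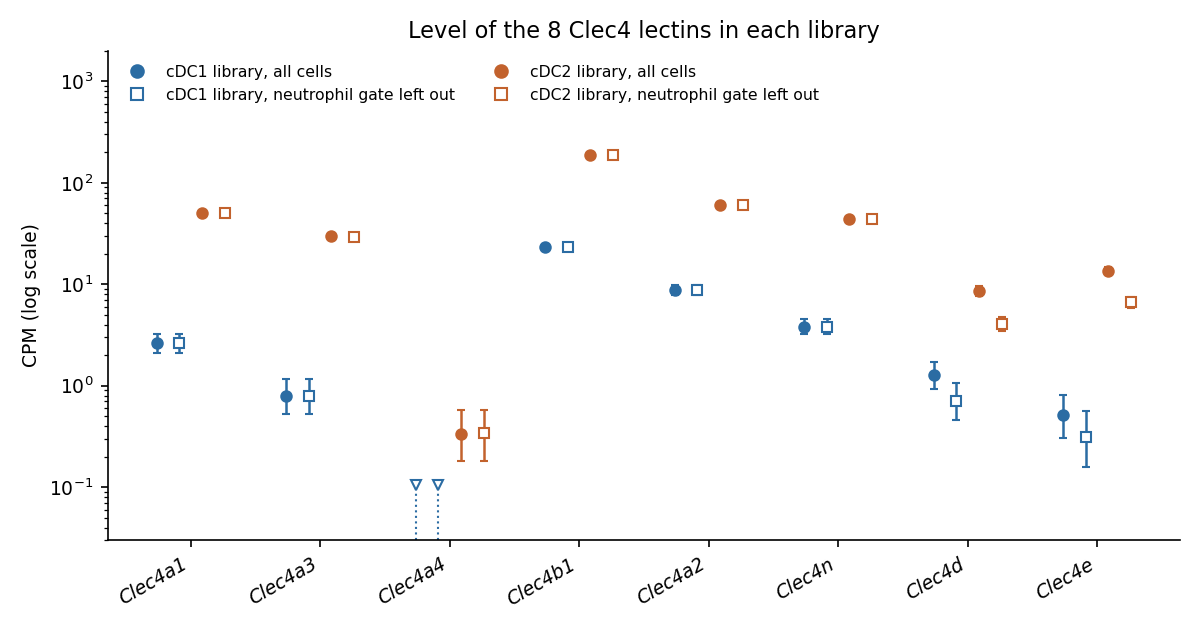
Level of each member in CPM (log axis) in the cDC1 (blue) and cDC2 (orange) library, genes in chromosomal order. Filled circles are all cells, open squares leave out the neutrophil-like cells, bars are 95% Poisson intervals, and an open triangle is the upper limit of a count of 0. Each member is higher in the cDC2 library, and Clec4d and Clec4e (8.62 and 13.5 CPM there) drop to 4.06 and 6.66 CPM without the neutrophil-like cells.

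A large share of the Clec4d and Clec4e transcripts counted in the cDC2 library came from 32 neutrophil-like cells, 1.13% of its cells. S100a9 and Csf3r, seen in all 32 cells, and Cxcr2, seen in 84.4%, are markers of that gate. The median cell had 2706 UMIs. The neutrophil-like cells held 177 of 333 Clec4d UMIs (53.2%, 47.6 to 58.6) and 267 of 523 Clec4e UMIs (51.1%, 46.7 to 55.4). Their levels were 1028 CPM for Clec4d, with a UMI in 29 of the 32 cells, and 1551 CPM for Clec4e, with a UMI in 30. Resting cDC2-like cells had 2.94 and 2.03 CPM, so the ratios were 350 (264 to 468) for Clec4d and 765 (563 to 1060) for Clec4e.

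The XCR1+ sort held only 3 neutrophil-like cells. They carried 20 of its 45 Clec4d UMIs (44.4%) and 7 of its 18 Clec4e UMIs (38.9%). Among the 7 members measured in neutrophil-like against resting cDC2-like cells, 4 were called higher (31.0% of genes) and Clec4b1 lower (16.2% of genes). Clec4d and Clec4e were measured through the neutrophil-like cells alone, so they could not be called lower. Clec4a1 (227 CPM) and Clec4a3 (238 CPM) were higher too, 5.05-fold and 12.5-fold, and Clec4b1 was at 34.9 CPM, on 6 UMIs. A UMI of Sirpa was seen in 56.3% of the CD172a+ neutrophil-like cells and in 71.5% of resting cDC2-like cells, whose gate uses it. How much of the Sirpa in neutrophil-like cells is free RNA was not tested.

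**Figure D2:**
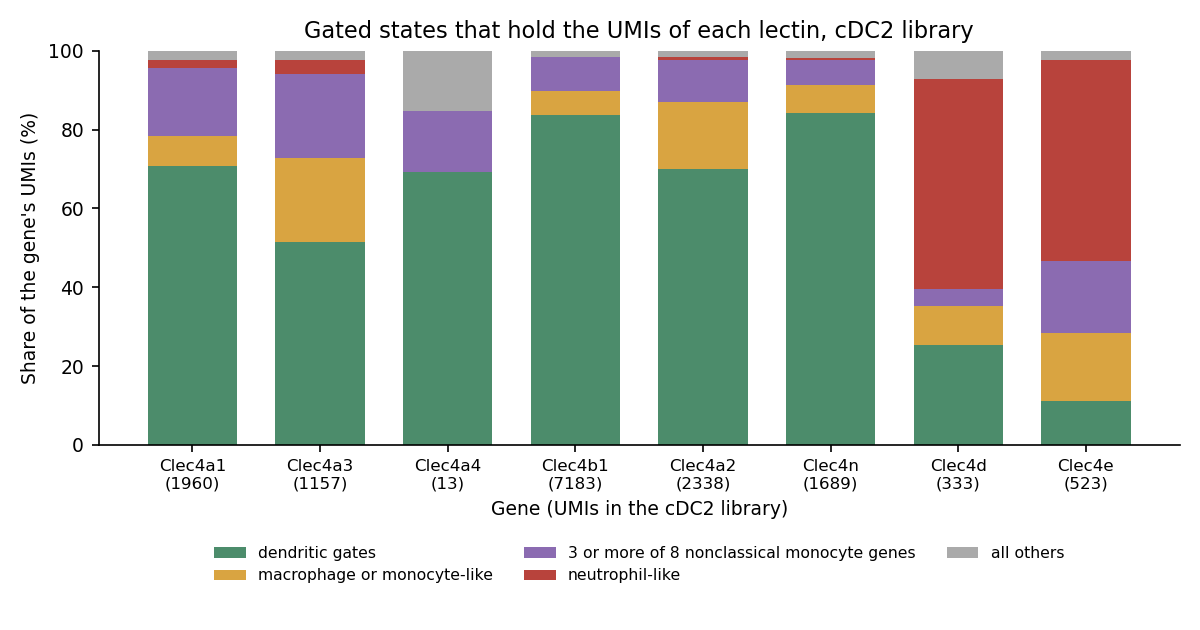
Share (%) of each member's UMIs in the cDC2 library held by groups of gated states, genes in chromosomal order with their UMI totals. Dendritic gates are cDC1-like, cDC2-like, cycling, mature and Cd7 Plac8 Ifitm6 cells. Neutrophil-like cells hold 53.2% of Clec4d and 51.1% of Clec4e but 0.0835% of Clec4b1 UMIs.

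Because Clec4d and Clec4e shared that source, the 250 bases before their starts are shown, from the RefSeq promoter table on GRCm38.p6, which held 6 of the 8 members (not Clec4a4 or Clec4n). Capitals mark GAGGAA, the core bound by the myeloid factor PU.1, and TTGCNNAA, a letter pattern of C/EBP factors, searched on both strands. Matches of the 2 patterns do not overlap in these windows.
Clec4d, chr6:123261857-123262106, plus strand: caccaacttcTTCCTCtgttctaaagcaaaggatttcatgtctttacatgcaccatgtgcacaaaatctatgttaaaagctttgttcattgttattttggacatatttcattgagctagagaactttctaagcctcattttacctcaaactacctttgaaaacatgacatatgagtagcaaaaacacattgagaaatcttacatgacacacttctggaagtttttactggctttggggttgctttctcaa
Clec4e, chr6:123289872-123290121, minus strand: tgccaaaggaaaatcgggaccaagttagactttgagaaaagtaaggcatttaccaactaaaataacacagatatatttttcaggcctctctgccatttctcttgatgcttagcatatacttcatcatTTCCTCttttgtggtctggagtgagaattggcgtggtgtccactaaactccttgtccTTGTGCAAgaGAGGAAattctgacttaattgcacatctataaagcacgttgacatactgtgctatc
Clec4d had 1 match of the first pattern and Clec4e had 2, beside 1 of the second. Over all 32851 promoter windows of that length 23.3% held the first pattern and 9.56% the second. Clec4a1 and Clec4b1 each had 2 matches of the first pattern, Clec4a2 had none, and Clec4a3, listed with 2 starts, had 0 and 1. Letter matches describe the window and say nothing about binding.

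Within the dendritic gates, resting cDC2-like cells of the CD172a+ sort carried 7 of the 8 members above 1 CPM and resting cDC1-like cells of the XCR1+ sort carried 2. In 1892 cDC2-like cells Clec4b1 stood at 200.2 CPM (4840 UMIs), Clec4n at 51.4 CPM (1243 UMIs), Clec4a2 at 50.9 CPM (1230 UMIs), Clec4a1 at 44.9 CPM (1084 UMIs) and Clec4a3 at 19.0 CPM (459 UMIs). Clec4n and Clec4a2 overlapped in their intervals. In 2057 cDC1-like cells Clec4b1 stood at 18.5 CPM (484 UMIs) and Clec4a2 at 6.99 CPM (183 UMIs), and no other member passed 0.611 CPM. Dectin-2 had 6 UMIs in cDC1-like cells and a ratio of 224.5 (102.9 to 613.0), and Clec4a3, with 3 UMIs, a ratio of 165.8 (56.4 to 807.0), so their order was not resolved. The ratio was 73.4 for Clec4a1, with 16 UMIs in cDC1-like cells, 10.8 (9.87 to 11.9) for Clec4b1 and 7.28 (6.23 to 8.56) for Clec4a2. All 5 measured members were called higher in the cDC2-like cells, where 8.45% of genes were called, against 7.08% called higher in the cDC1-like cells. Only Clec4b1 reached 10 CPM in the cDC1-like cells, so the filter set the direction of the other calls.

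Cells of the other kind inside each library gave the same contrast with 1 library on both sides. In the cDC1 library the 34 cDC2-like cells had 88.6 CPM of Clec4n (47 UMIs), 152.7 CPM of Clec4b1 (81 UMIs) and 54.7 CPM of Clec4a1 (29 UMIs). Clec4a2 was lower there at 24.5 CPM (13 UMIs), and Clec4a3 had 5 UMIs. All 4 measured members were called higher than in the cDC1-like cells around them (12.5% of genes, with 13.3% lower), with ratios of 386.7 (165.0 to 1107) for Clec4n and 3.51 (1.83 to 6.15) for Clec4a2. Again only Clec4b1 passed the filter on both sides. In the cDC2 library the 38 cDC1-like cells had 12 UMIs of Clec4b1 (25.9 CPM), 10 of Clec4a2 (21.5 CPM) and 0 of Clec4n, and all 5 measured members were called higher in the cDC2-like cells (10.0% of genes, with 17.6% lower). Here Clec4b1 and Clec4a2 alone passed on both sides. Clec4n in these cDC2-like cells was 7.96-fold the floor of 3 counts in the cDC1-like cells.

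The same state in different libraries was closer. For cDC2-like cells, 3 of 5 measured members were within 2-fold between libraries. Clec4a2 (2.08-fold, 1.21 to 3.91) and Clec4a3 (2.02-fold, 0.857 to 6.24) were called higher in the cDC2 library, against 6.00% of genes (4.24% lower), while Clec4n was 0.581 times its level in the cDC1 library (0.434 to 0.794). For cDC1-like cells Clec4b1 was within 2-fold (1.40, 0.718 to 2.47) and Clec4a2 was called higher in the cDC2 library (3.08-fold, 1.45 to 5.80; 11.3% of genes, with 4.88% lower). Those 38 cells had Mgl2 in 42.1% and Plac8 in 65.8%, so they were not a clean match, and what this adds to the Clec4a2 ratio was not tested.

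Member UMIs in B cell-gated cells were counted as a view of free RNA. Whether B cells make any member themselves was not tested. Among the B cell-gated cells of the cDC2 library, 22 cells with at most 1 of 10 cDC2 markers (median 3207 UMIs) had 3 member UMIs in all, 1 of Clec4a1 and 2 of Clec4b1. At their depth that is 38.9 CPM for all members together (up to 113.7) and 25.95 CPM for Clec4b1 (up to 93.7), which does not separate the 25.9 CPM of Clec4b1 in cDC1-like cells or the 64.8 CPM in mature cells of that library from free RNA. The other 16, with at least 2 cDC2 markers and a median of 16362 UMIs, had 113. This split was chosen after the values were seen, and since free RNA can itself bring cDC2 markers, it favours cells with little of it. In the cDC1 library the 5 B cell-gated cells had 0 member UMIs, which at 40972 UMIs allows up to 90.0 CPM, more than the 26.5 CPM of all members together in cDC1-like cells, so those B cells set no useful limit there. The ratio of Clec4b1 to Clec4n was 484 to 6 UMIs in cDC1-like cells and 81 to 47 in cDC2-like cells of the cDC1 library, 80.7 (36.8 to 220.9) against 1.72 (1.19 to 2.52). The part of free RNA and doublets in the cDC1-like cells' UMIs, 6 of Clec4n and 1 each of Clec4d and Clec4e among them, was not tested. In the cDC1 library Clec4n was also concentrated, with 57 of 134 UMIs in the 15 cells that met no gate, 44 of those 57 in 1 cell.

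**Figure D3:**
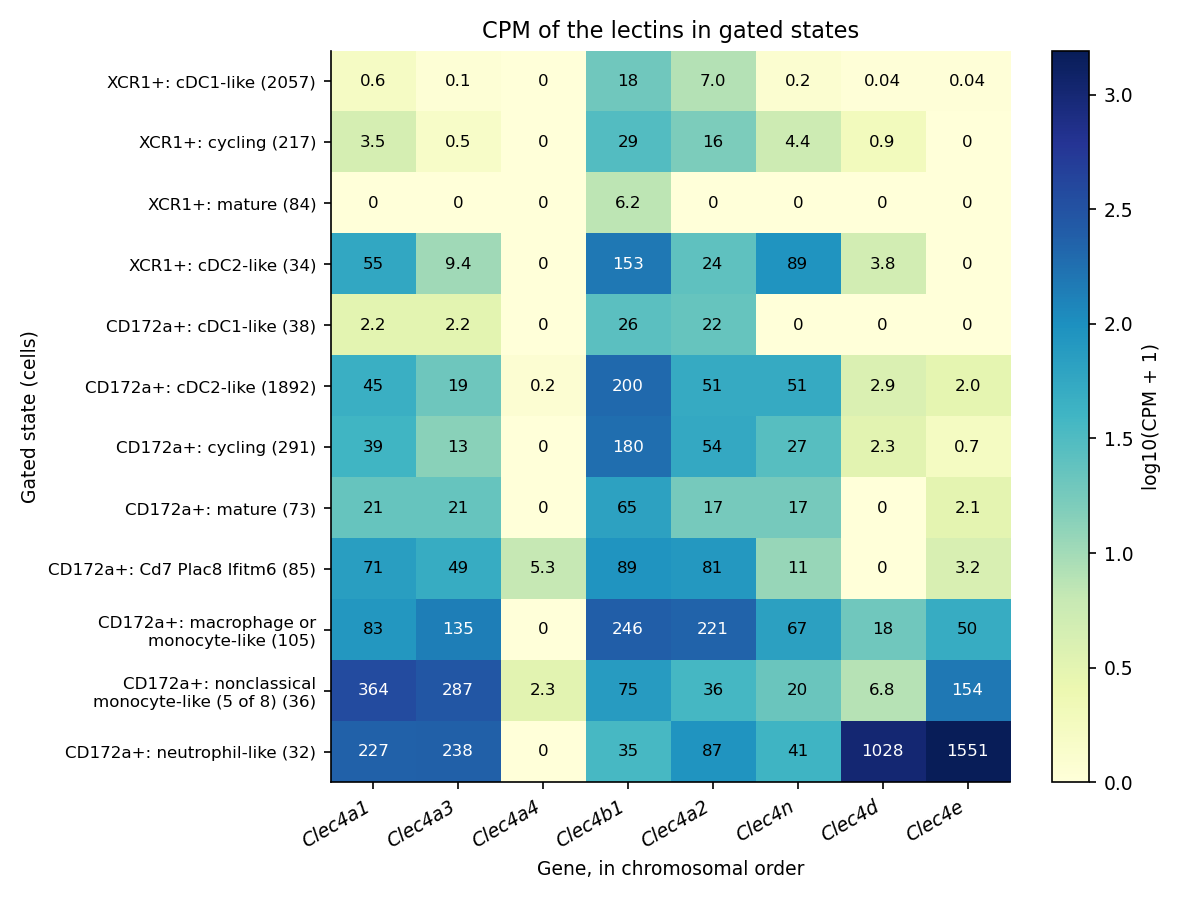
CPM of each member (columns, in chromosomal order) in gated states (rows, with the number of cells), coloured by log10(CPM + 1), with the CPM printed. Clec4n is highest in the cDC2-like cells of the XCR1+ sort (88.6 CPM, 65.1 to 117.8), an interval that overlaps that of macrophage or monocyte-like cells. Clec4b1 is highest in macrophage or monocyte-like cells (246.1 CPM), and Clec4d and Clec4e in neutrophil-like cells (1028 and 1551 CPM). Clec4a1 and Clec4a3 are highest in nonclassical monocyte-like cells (363.9 and 287.1 CPM), where the interval of Clec4a3 overlaps that of neutrophil-like cells.

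Resting cDC1-like cells differed among themselves in the 2 members above 1 CPM. Cells with Plet1, the gene of a surface protein, numbered 813 and had 11.7 CPM of Clec4b1 (127 UMIs) and 4.07 CPM of Clec4a2 (44 UMIs). The 1094 remaining cells, without Plet1 and with under 2 UMIs of Ccr7, had 25.7 CPM (341 UMIs) and 10.1 CPM (134 UMIs). Both measured members were thus called lower in the Plet1 cells, 2.19-fold (1.78 to 2.70) and 2.48-fold (1.75 to 3.57), where 0.362% of 6073 genes were called lower and 0.247% higher. Clec4a2 passed the filter through the remaining cells alone. The median depth was 13030 UMIs with Plet1 and 12040 without.

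Cells with at least 2 UMIs of Ccr7, the receptor that guides dendritic cells to lymph nodes, numbered 150 and had 7.64 CPM of Clec4b1 (16 UMIs) and 2.39 CPM of Clec4a2 (5 UMIs). Clec4b1, the only measured member, was called lower than in the other cDC1-like cells (2.54-fold, 1.55 to 4.48; 4.77% of genes, with 4.08% higher). It passed the filter through those other cells alone. Cycling cells of the cDC1 library went the other way for Clec4a2, at 15.6 CPM (67 UMIs), 2.24-fold above resting cells (1.67 to 2.98; 9.63% of genes, with 0.309% lower), while Clec4b1 was at 29.2 CPM, within 2-fold. Clec4a2 passed the filter through the cycling cells alone. The cycling gate does not separate cDC1 from cDC2 cells, and Clec4n stood at 4.43 CPM (19 UMIs) in it. In cycling cells of the cDC2 library all 5 measured members stayed within 2-fold of resting cDC2-like cells (7.39% of genes called higher, 0.498% lower), with Clec4n furthest at 27.3 CPM, 1.88-fold lower (1.59 to 2.24).

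Among resting cDC2-like cells no measured member differed 2-fold between a subset and the remaining cells, and members differed in direction. The 315 cells with Mrc1 and Il1rl1, genes of the mannose receptor and the interleukin 33 receptor, had 82.8 CPM of Clec4a2 (352 UMIs) and 30.1 CPM of Clec4a3 (128 UMIs), 1.88-fold (1.66 to 2.13) and 1.81-fold (1.47 to 2.23) the other resting cells. Clec4b1 (235.9 CPM, 1.22-fold) and Clec4a1 (52.7 CPM, 1.22-fold) were nearer, and Clec4n was lower at 39.3 CPM, 0.727 times the others (0.614 to 0.857). None of 5 measured members was called, where 1.64% of genes were called higher and 0.738% lower. Moving every gate by 1 marker, either way, brought 1 member past 2-fold.

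The 1021 cDC2-like cells with at least 2 UMIs of Ccr7 were lower in most members and higher in dectin-2. Clec4a2 stood at 39.3 CPM, 1.69-fold (1.504 to 1.89) below the other resting cells, Clec4a3 at 14.3 CPM, 1.77-fold (1.47 to 2.14) below, and Clec4n at 57.97 CPM, 1.35-fold (1.21 to 1.52) above. Clec4b1 (174.2 CPM) and Clec4a1 (41.4 CPM) were 1.35-fold and 1.19-fold lower. The Mrc1 Il1rl1 subset is part of the comparison group here, so the values of both contrasts are not independent.

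Mature dendritic cells, defined by Fscn1 and at least 4 of 10 maturation genes, carried less of most measured members than resting cells. In the cDC1 library the 84 mature cells held 7 member UMIs, all of Clec4b1 (6.21 CPM, 2.50 to 12.8), and none of the others, with an exact 95% upper bound of 3.27 CPM each. Members other than Clec4b1 and Clec4a2 were at 0.611 CPM or less in resting cDC1-like cells. That lies below the bound, so a lower level of these could not be seen. Clec4b1, the 1 measured member, was 2.98-fold lower than in resting cDC1-like cells (1.43 to 7.44), where 13.3% of genes were called lower and 15.1% higher. It passed the filter through the resting cells alone. Clec4a2, at 6.99 CPM in resting cells, had 0 UMIs in mature ones, 2.63-fold lower with the floor of 3 counts in place of 0. That floor lies below the upper bound of 3.27 CPM.

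In the cDC2 library the 73 mature cells had 64.8 CPM of Clec4b1 (61 UMIs), 17.0 CPM each of Clec4a2 and Clec4n (16 UMIs each) and 21.3 CPM each of Clec4a1 and Clec4a3 (20 UMIs each). Of 5 measured members 4 were called lower than in resting cDC2-like cells, where 6.91% of 6661 genes were called lower and 13.8% higher. Clec4b1 was 3.09-fold lower (2.40 to 4.04), Clec4n 3.02-fold (1.86 to 5.31), Clec4a2 2.99-fold (1.84 to 5.25) and Clec4a1 2.11-fold (1.36 to 3.47). Clec4a3 was the exception, at 1.12 times its resting level (0.677 to 1.75). At 3-fold 2 of the 5 remained called, so the size of the difference sits close to the rule. The members' median log2 ratio was -1.58, against 0.19 over all measured genes. The mature cells of this library had Sirpa in 72.6% and Irf8, a cDC1 gene, in 49.3%, so they may hold both kinds, and the part of such mixing in the lower levels was not tested.

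**Figure D4:**
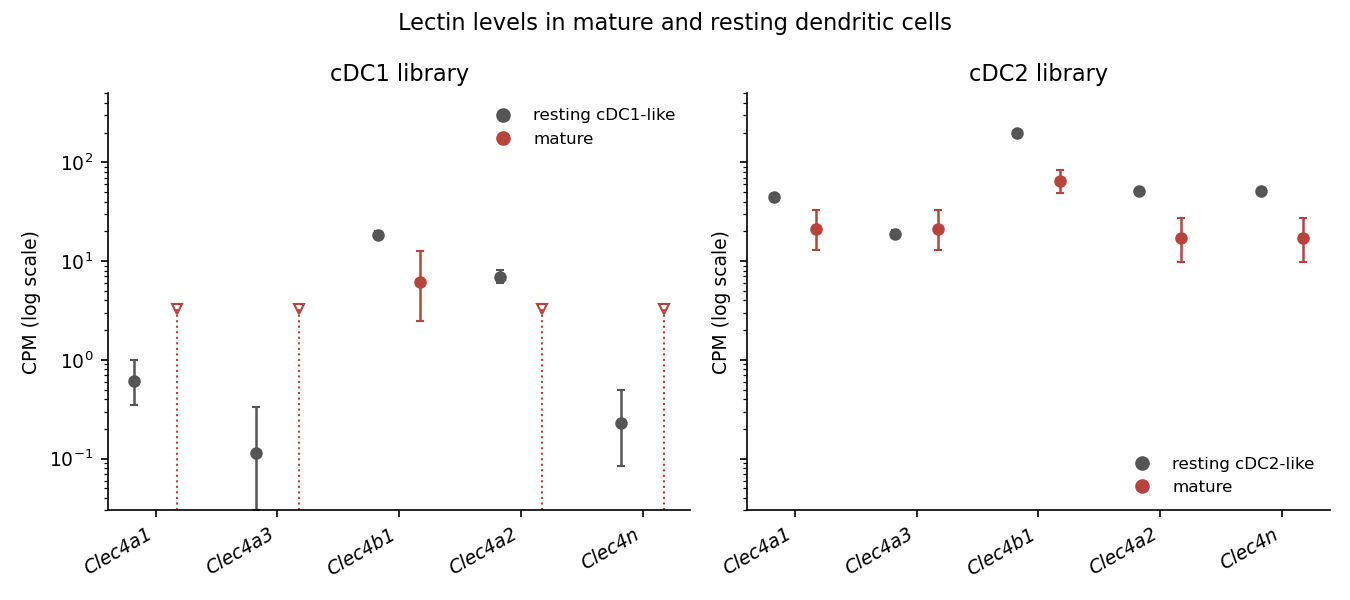
CPM (log axis) of 5 members in resting (grey) and mature (red) dendritic cells of each library, with 95% Poisson intervals. Open triangles with dotted lines are upper limits of a count of 0. In the cDC2 library 4 members are lower in mature cells, Clec4b1 at 64.8 against 200.2 CPM, and Clec4a3 (21.3 against 19.0 CPM) is not.

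Other myeloid cells of the CD172a+ sort carried a different mixture. The 105 macrophage or monocyte-like cells, with the gate markers C1qb in 82.9% and Fn1 in 82.9%, had 221.1 CPM of Clec4a2 (399 UMIs) and 135.2 CPM of Clec4a3 (244 UMIs). These were 4.35-fold (3.87 to 4.87) and 7.12-fold (6.07 to 8.34) the resting cDC2-like cells. Clec4e stood at 49.9 CPM (90 UMIs), 24.6-fold (17.2 to 35.6), and Clec4d at 18.3 CPM (33 UMIs), 6.23-fold (3.99 to 9.54). Clec4b1 (246.1 CPM), Clec4n (66.5 CPM) and Clec4a1 (83.1 CPM) were within 2-fold. So 4 of 7 measured members were called higher (15.0% of genes) and none lower (3.17% of genes). Clec4d and Clec4e were measured through the macrophage or monocyte-like cells alone, so they could not be called lower. The members' median log2 ratio in this contrast, raised by the same limit, was 2.12, against 0.34 over all measured genes.

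These cells shared cDC2 genes, with Mgl2 in 95.2%, and had a median of 17171 UMIs against 12371 in resting cDC2-like cells. The 6 such cells of the cDC1 library had 21 UMIs of Clec4a2 (170.4 CPM), 19 of Clec4b1 (154.2 CPM), 10 of Clec4a3 (81.2 CPM) and 9 of Clec4e (73.0 CPM). They held 9 of the 18 Clec4e UMIs of that library.

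The 36 nonclassical monocyte-like cells, whose gate was tightened after the values were seen, carried the members of neither kind at higher levels than any other gated state, Clec4a3 with an interval (239.3 to 341.5 CPM) that overlaps that of neutrophil-like cells (170.9 to 323.2 CPM). Clec4a1 stood at 363.9 CPM (161 UMIs, in 34 of 36 cells) and Clec4a3 at 287.1 CPM (127 UMIs, in 35 cells), 8.07-fold (6.80 to 9.53) and 14.6-fold (11.9 to 17.8) the resting cDC2-like cells of the same gating. Clec4e stood at 153.7 CPM, 71.5-fold (49.4 to 103.9), from 68 UMIs in 13 cells. Clec4b1 (74.6 CPM) and Clec4n (20.3 CPM) were 2.68-fold and 2.49-fold lower. Of 6 measured members 3 were called higher (22.7% of genes) and 2 lower (7.53% of genes). Clec4e was measured through the nonclassical monocyte-like cells alone and could not be called lower. The median cell had 8848 UMIs.

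Cells with Cd7, Plac8 and Ifitm6, 85 in the cDC2 library, held more of the few Clec4a4 UMIs than any other gated state. They held 5 of its 13 UMIs, at 5.29 CPM (1.72 to 12.3), against 0.166 CPM (4 UMIs) in resting cDC2-like cells, a ratio of 31.9 (6.88 to 161.0). Each UMI came from a different cell. Clec4n was 4.87-fold lower there (10.6 CPM, 10 UMIs) and Clec4b1 2.26-fold lower (88.8 CPM), while Clec4a3 was 2.56-fold higher (48.6 CPM). That is 1 of 5 measured members called higher (9.79% of genes) and 2 lower (6.34% of genes). Clec4a2 (81.4 CPM) and Clec4a1 (70.8 CPM) were within 2-fold. The Clec4a4 interval overlapped that of nonclassical monocyte-like cells (2.26 CPM, 0.0572 to 12.6, 1 UMI). Cells of the cDC2 library that met no gate held 2 of the 13 Clec4a4 UMIs. A Clec4a4 level particular to the Cd7 Plac8 Ifitm6 cells was thus not shown.

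The balance of activating and inhibitory transcripts was computed as the UMIs of Clec4b1, Clec4d, Clec4e and Clec4n for each UMI of Clec4a2 and Clec4a4. It was 3.32 (2.91 to 3.78) in the cDC1 library and 4.14 (3.96 to 4.33) in the cDC2 library. Although the cDC2 library had far more of both kinds, 251.9 against 28.8 CPM of activating and 60.9 against 8.70 CPM of ITIM members, the balance differed far less than the levels did. The intervals of the balance did not overlap, and over gated dendritic cells it was 2.95 (2.57 to 3.41) in the cDC1 library and 4.60 (4.36 to 4.85) in the cDC2 library. In both libraries it rested on Clec4b1, which gave 80.5% and 73.8% of the activating UMIs. Without Clec4b1 the balance was 0.646 (0.537 to 0.775) in the cDC1 library, where ITIM transcripts then outnumbered activating ones, and 1.08 (1.023 to 1.15) in the cDC2 library. Transcript numbers are not receptor numbers, and the ratio depends on how well each 3' end is captured.

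By state the balance ran from near even to strongly activating. Resting cDC2-like cells of the cDC2 library had 5.03 (4.73 to 5.35) together. Those with Ccr7 had 6.01 (5.48 to 6.59) and those with Mrc1 and Il1rl1 3.38 (2.99 to 3.81), intervals that do not overlap, and resting cDC1-like cells of the cDC1 library had 2.69 (2.26 to 3.203). Macrophage or monocyte-like cells had 1.72 (1.52 to 1.95) and Cd7 Plac8 Ifitm6 cells 1.18 (0.873 to 1.61), the lowest of the states with at least 50 cells. The 34 cDC2-like cells of the XCR1+ sort had 10.0 (5.65 to 19.3). Neutrophil-like cells of the CD172a+ sort had 30.5 (18.3 to 54.9), almost all from Clec4d and Clec4e, since Clec4b1 gave 1.31% of their activating UMIs. Without Clec4b1, cDC1-like cells of the cDC1 library dropped to 0.0437 (0.0186 to 0.0880).

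**Figure D5:**
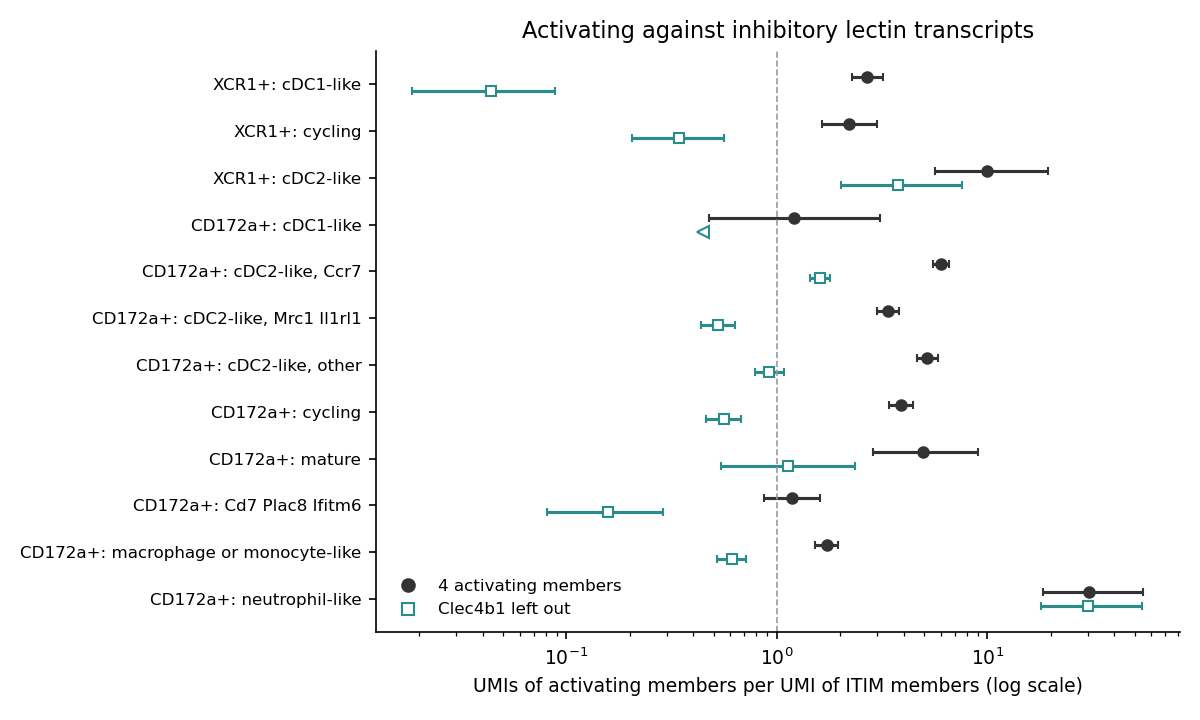
UMIs of the 4 activating members per UMI of the ITIM members (log axis) in gated states, with 95% exact binomial intervals. Filled circles hold all 4 activating members, open squares leave out Clec4b1, the open triangle is an upper limit, and the dashed line is 1. With Clec4b1 the balance runs from 1.18 to 30.5, and without it cDC1-like cells of the XCR1+ sort fall to 0.0437.

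Per cell, member transcripts were common in CD172a+ cells and sparse in XCR1+ cells. Each cell was thinned to 5000 UMIs so that depth did not set the share, leaving out 71 and 135 shallower cells. At that depth 12.5% of cells of the cDC1 library (11.3 to 13.9) and 74.3% of the cDC2 library (72.6 to 75.9) had a UMI of any member. The unthinned shares were 26.1% and 88.5%. Of thinned resting cDC2-like cells (unthinned median 12371 UMIs) 76.4% had one, against 24.3% (11.8 to 41.2) of 37 cDC1-like cells of the same library (median 11114 UMIs) and 11.3% (9.95 to 12.8) of the cDC1-like cells of the cDC1 library. Of 20 thinned lymphoid and structural cells 70.0% had one, a group of median 4274 UMIs before thinning that kept mainly deep cells and included B cell-gated cells with cDC2 markers, so it gave no clean background.

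Clec4b1 gave most of this detection, with a UMI in 57.8% of thinned resting cDC2-like cells, against 19.8% for Clec4a2, 18.4% for Clec4a1, 14.95% for Clec4n and 7.72% for Clec4a3. Clec4d and Clec4e were seen in 1.14% and 0.979% and Clec4a4 in 2 of 1839 cells. For Clec4n and Clec4a1 the shares and the summed levels (51.4 and 44.9 CPM) gave opposite orders, so no order is read from them. In macrophage or monocyte-like cells Clec4a2 was seen in 66.3% (56.3 to 75.4) and Clec4a3 in 46.5% (36.6 to 56.7). In mature cells of the cDC2 library 25.7% (16.01 to 37.6) had any member.

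Co-detection of activating and inhibitory members in 1 cell varied by state. Among thinned resting cDC2-like cells of the cDC2 library 14.1% (12.6 to 15.8) had UMIs of both kinds, 50.7% of an activating member only, 5.76% of an ITIM member only and 29.4% of neither. An activating UMI was present in 71.0% of cells with an ITIM UMI and in 63.3% of cells without one. That order was the other way in macrophage or monocyte-like cells (76.1% and 79.4%) and in the Mrc1 Il1rl1 subset (70.8% and 72.6%). Those 2 states had only 67 and 96 cells with an ITIM UMI. No interval was computed for any of these shares, so no order is read from them. Both kinds met in 50.5% (40.4 to 60.6) of macrophage or monocyte-like cells, in 22.1% (17.6 to 27.1) of the Mrc1 Il1rl1 subset and in 11.3% (9.40 to 13.4) of the Ccr7 subset. In mature cells of the cDC2 library 0 of 70 cells had both, which allows a share of up to 5.13%, but only 1 of them had an ITIM UMI. In resting cDC1-like cells of the cDC1 library 0.597% (0.309 to 1.04) had both. Missed transcripts lower these shares, while doublets and free RNA raise them, and their parts were not tested.

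Partner genes of these receptors were seen in both sorts. Of 10 listed adaptors and kinases 9 were measured and 4 were called higher in the cDC2 library, 5 within 2-fold and none lower, against the 7.79% and 5.51% of all genes given above. Fcer1g, the gamma chain itself, stood at 241.6 and 1164 CPM (4.82-fold, 4.71 to 4.93) and Syk at 54.7 and 226.4 CPM (4.14-fold, 3.94 to 4.36). Malt1, of the complex that carries the signal to NF-kB, stood at 127.8 and 479.3 CPM (3.75-fold), and Tyrobp at 702.4 and 1516 CPM (2.16-fold). Card9, the adaptor of that complex, was below 10 CPM in both (2.99 and 4.45 CPM).

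None of the 3 phosphatases of the inhibitory arm was called. Ptpn6 was 1.84-fold higher in the cDC2 library (1.77 to 1.92), Ptpn11 1.12-fold, and Inpp5d was lower there, at 0.594 times (0.573 to 0.615). Of 5 NF-kB subunits Nfkb1 alone was called higher (2.14-fold; 7.79% of genes), with Rel at 1.97-fold. Of 9 products known downstream of dectin-2 and Mincle 5 were measured and 4 called higher in the cDC2 library (7.79% of genes). Alox5, the first enzyme of leukotriene synthesis, was 33.4-fold higher (22.7 to 51.4), Cxcl2 7.12-fold, Cxcl1 4.52-fold and Il1b 2.87-fold, at 1232 and 3540 CPM. These ratios cover all cells of each library. Over gated dendritic cells 4 products were measured and 3 called higher (7.47% of genes). Cxcl2 stood at 2461 CPM in macrophage or monocyte-like cells of the cDC2 library, against 163.6 CPM in its other cells.

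Other signalling C-type lectins were called in both directions. Of 9 listed, 8 symbols were matched and 7 measured, of which Clec10a was called higher in the cDC2 library (29.3-fold; 7.79% of genes) and Clec9a and Clec1a lower (5.51% of genes). Clec12a, another ITIM lectin, had 220.4 CPM in XCR1+ cells and 117.5 CPM in CD172a+ cells, 0.533 times (0.514 to 0.553). Clec4b2, a near copy of Clec4b1 at the same locus, had 0.456 CPM in the cDC1 library and 0 UMIs in the cDC2 library.

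In mature against resting cells of the cDC1 library 4 of 5 NF-kB subunits were called higher (15.1% of genes), and in the cDC2 library 1 of 5 was (13.8% of genes). Of 9 measured adaptors and kinases 1 was called lower in the cDC1 library (13.3% of genes) and 1 in the cDC2 library (6.91% of genes), counts near those shares, and 1 was called higher in the cDC1 library.

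Across states the members fell into looser and tighter groups. Likeness was Pearson's r of log2(CPM + 10) over 15 library-by-state groups of at least 50 cells, given as a description, since the groups share libraries, depth and the genes of their gates. Clec4b1 and Clec4n were alike at r = 0.94, as were Clec4a1 with Clec4b1 and Clec4a3 (0.93 each) and Clec4a2 with Clec4a3 and Clec4a1 (0.92 each). Clec4e was most like Clec4a3 (0.82) and least like Clec4b1 (0.52). Clec4d was most like Clec4n (0.70). In most groups Clec4d and Clec4e lay below the added 10 CPM. Their r values, here and below, thus rest on few groups. Neutrophil-like cells were too few to enter. The 36 nonclassical monocyte-like cells entered only as part of the 205 cells with at least 3 of the 8 genes. They held 68 of that group's 96 Clec4e UMIs and 127 of its 248 Clec4a3 UMIs.

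Among 8393 other genes the 3 most like each member were Plxnb2, Csf1r and Nfia for Clec4a2 (r of 0.97 each) and Fcer1g, Emb and Ctsa for Clec4a1 (0.98 each). Cebpb, Cyp4f18 and Pilrb1 were nearest to Clec4a3 (0.98, 0.97 and 0.97), and Kdm6b, Ank and Ccr1 to Clec4b1 (0.98 each). Noct, Ccr1 and Irf4, a transcription factor of cDC2 cells, were nearest to Clec4n (0.97, 0.97 and 0.96), Fgd4, C5ar1 and F10 to Clec4e (0.99, 0.98 and 0.97), and Gdf15, Rffl and Tigd2 to Clec4d (0.97, 0.92 and 0.91). Fcer1g, whose product the activating members need, was thus nearest to a member of neither kind.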

How the data were processed

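The deposited values are unnormalized UMI counts, 1 gene-by-barcode matrix for each library (2939 and 3045 barcodes). Per the labels' protocols the 10x Chromium v3.1 kit was used and the libraries shared 1 sequencing lane. Per the submitters' processing notes, counts came from Cell Ranger 3.2 on mm10 (Seurat is named without a role), while the file headers carry software version 3.0.2. How barcodes were selected, and on which annotation release, was not given in the sources used here.

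Barcodes under 500 genes, under 1000 UMIs or over 10% mitochondrial UMIs were removed (365 and 210). States were gated on marker genes at 1 UMI in a fixed order. UMIs were summed to CPM with exact Poisson intervals, ratios had exact conditional binomial and shares Clopper-Pearson intervals (95%, counting error only). Cells are not replicates, so no p-value was computed. The size rule was checked on simulated counts. Python 3.11.15, numpy 2.4.6, scipy 1.17.1 and pandas 2.3.3 were used. The named genes were all 8 members, up to 4 of largest ratio per partner list and the 3 most alike genes per member, with a few further list genes named after their values were seen. The members, lists and gates were chosen with earlier results of these data known. Alternatives covered filters, gates, depth, the fold and CPM limits and weighting.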

Additional observations from a re-analysis of the deposited data

How the results depend on the processing

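No paired analysis was possible because each sort has 1 library, so no replicate could be left out or blocked either. Of 127 recomputed counts, balances and shares, 110 stayed within 1.5 times or the counting interval. Many of these had little room to move. They include counts of 0 that stayed 0, some in a direction that the CPM filter set. Thinned shares and co-detection could not change at a minimum of 5000 UMIs, since thinning already left out shallower cells. At a minimum of 50 CPM 3 members were measured, through the cDC2 library alone, and called higher there. Leaving Clec4b1 out of the activating sum, an alternative chosen after seeing the data, turned the balance of the cDC1 library to 0.646 and took that of the cDC2 library to 1.08. The latter was 4.76 as a mean of per-cell CPM and 4.60 over gated dendritic cells. At 3-fold 0 members (cDC1 library) and 2 members (cDC2 library) were called lower in mature cells. For the Mrc1 Il1rl1 subset 2 members were called higher at 1.5-fold, 1 with gates 1 marker lower and 1 with gates 1 marker higher. The share of cells with any member was 6.27% and 47.2% when thinned to 2000 UMIs, and 26.1% and 88.5% unthinned. Co-detection was 4.08% at 2000 UMIs, 34.5% unthinned and 12.4% with gates 1 marker lower. Of 64 values for single genes 60 stayed within the counting interval. Over gated dendritic cells the log2 ratio of the libraries was 5.90 for Clec4a3, 3.59 for Clec4d, 5.86 for Clec4e and 4.31 for Clec4n, against 5.23, 2.75, 4.72 and 3.52 over all cells. Clec4a4, with 13 UMIs, and all members in mature cells of the cDC1 library, with 7 UMIs, are limited by depth.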

Other observations

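The barcodes removed for a high mitochondrial share or low depth, a median of 2590 UMIs and 18.4% mitochondrial UMIs in the cDC2 library, carried the members at levels that did not follow the kept cells in every gene. In 210 removed barcodes of that library Clec4a3 stood at 116.5 CPM (67 UMIs), against 29.96 CPM in kept cells, and Clec4b1 at 351.1 CPM (202 UMIs), against 186.0 CPM. Clec4a2 stood at 118.2 CPM and Clec4a1 at 88.7 CPM, both above the kept cells, while Clec4n was lower at 31.3 CPM (18 UMIs). The 365 removed barcodes of the cDC1 library had 33 UMIs of Clec4b1 (34.8 CPM), 12 of Clec4a2 (12.6 CPM) and 0 of every other member.

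The 15 cells of the cDC1 library that met no gate held 57 of its 134 Clec4n UMIs, at 451.2 CPM, and 44 of those 57 were in 1 cell. They also had Clec4d at 118.7 CPM (15 UMIs) and Clec4a1 at 110.8 CPM (14 UMIs). These cells are a remainder, not a state. In the 32 neutrophil-like cells of the cDC2 library Clec4e and Clec4d stood at 267 to 177 UMIs, a ratio of 1.51 (1.24 to 1.84), while in the 3 of the cDC1 library they stood at 7 to 20, a ratio of 0.35 (0.125 to 0.862).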
